A study of Mus musculus with 18 samples.

Results

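The genes described here are Asns, Phgdh, Psat1, Psph, Shmt2, Mthfd2, Atf4, Ddit3, Trib3 and Chac1: 10 of the 52636 mouse genes counted in the deposited tables. They are a named set around the transcription factor ATF4, selected on their counts in this series, where several were much lower after CHIR withdrawal. Their differences in any comparison with the CHIR or withdrawal groups are therefore a description: no p-value is given for them, and where they are counted past a threshold, the count is set beside that of all genes and supports nothing. For the 10 genes only comparisons among the 3 ligand groups are given as tests. Each of the 10 matched a single gene identifier, and all 10 passed the filter on low counts.

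ATF4 is the effector of the integrated stress response. When amino acids run short, when unfolded proteins collect in the endoplasmic reticulum or when mitochondria falter, kinases phosphorylate eIF2, most protein synthesis slows, and the ATF4 message is translated more. ATF4 then binds, often with a C/EBP partner, near genes for amino acid synthesis, amino acid import and folate metabolism, and near stress regulators such as Ddit3, Trib3 and Chac1. In alveolar type 2 cells, the surfactant-secreting progenitors of the lung alveolus, this program has been studied mainly as a response to protein folding stress.

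The libraries came from mouse cells labelled as alveolar type 2 cells, cultured for 19 days with CHIR99201 (so spelled in the labels and called CHIR below), a small molecule that activates Wnt signalling inside the cell by inhibiting GSK3. Every group carried LGK974, an inhibitor of porcupine that stops cells from secreting their own Wnt ligands. The 6 groups had 3 libraries each: cells kept with CHIR, cells 24 h after CHIR withdrawal, cells 48 h after withdrawal, and cells given WNT, a FZD5 agonist or a FZD6 agonist, with treatments of 8 to 12 h. Neither the time that cells spent without CHIR before a ligand nor the origin of the 3 libraries of a group, from 1 culture or several, is labelled. The spread behind a p-value may therefore be technical where the libraries of a group are alike. Xist was at 0 to 4 counts in 3 libraries (FZD6 agonist 1, CHIR 3 and 24 h withdrawal 2), against 251 to 812 elsewhere. The spread that these libraries add to a fit cannot be taken as technical, and their origin was not tested.

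Total counts ran from 31509607 to 52030066 per library, so 3 counts correspond to 0.0577 to 0.0952 CPM (counts scaled to a common library size), and the lowest count of any of the 10 genes was 71, for Chac1. The following 4 libraries stood apart from the other 14: CHIR 1, CHIR 3, 24 h withdrawal 2 and FZD6 agonist 1. Their median correlation with the other libraries was 0.782 to 0.950, against 0.966 to 0.982 for the 14, and the surfactant gene Sftpc took 9.11% to 13.05% of their counts, against 3.95% to 5.63%. CHIR 3, FZD6 agonist 1 and 24 h withdrawal 2 also held 186 to 454 CPM of 4 airway genes (Scgb1a1, Scgb3a1, Bpifa1 and Reg3g summed), against 0.136 to 1.63 CPM in the other 15, and 0 to 4 counts of Xist, against 251 to 812. Mitochondrially encoded genes took 4.13% of counts in 24 h withdrawal 2 and 0.271% to 0.718% elsewhere. Results that rest on these 4 libraries are given with and without them; without them the CHIR group is the single library CHIR 2. The 10 alveolar type 2 markers summed to 66955 to 166555 CPM and were all present in every group, while 5 mesenchymal markers summed to at most 0.441 CPM (Col3a1 and Col1a2 without a count), 4 endothelial markers to at most 0.143 CPM (Cdh5 and Kdr without a count) and 4 blood cell markers to at most 13.6 CPM.

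The promoter sequences are shown because they carry the C/EBP-ATF response element, the composite motif that ATF4 is known to bind. The motif searched was TGATGNAA, on either strand, in RefSeq windows of GRCm38.p6 from 250 bases before to 50 bases after a start site. It occurred in 3 of the 10 genes (30%) and in 1304 of 32851 windows of all genes (3.97%); among genes tested for expression with a window, 294 of 10792 (2.72%) had it. The sites are printed 5′ to 3′ on the strand that reads the motif, with the motif in capitals.
Chac1, chr2:119351038-119351067, minus strand: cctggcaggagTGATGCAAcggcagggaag
Trib3, chr2:152344028-152344057, plus strand: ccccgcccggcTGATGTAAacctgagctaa
Asns, chr6:7693214-7693243, minus strand: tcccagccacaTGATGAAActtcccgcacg
Relative to the RefSeq start sites, the motif begins 193 bases before that of Chac1, 23 bases before that of Asns, and at base 15 of Trib3, counting the start as base 1. The GENCODE genes whose coordinates are printed below start elsewhere, at 119351229, 7693254 and 152344032 in place of 119351242, 7693209 and 152344060; by them the Asns site lies inside the gene and the Trib3 site upstream of it. The search fixed the first 5 letters and the final AA, so within the motif the 3 sites could differ only at the free position, where they do. The wider stretch upstream of Chac1 is shown on the plus strand for context, with the same site in capitals as its reverse complement.
Chac1, chr2:119350992-119351228, plus strand: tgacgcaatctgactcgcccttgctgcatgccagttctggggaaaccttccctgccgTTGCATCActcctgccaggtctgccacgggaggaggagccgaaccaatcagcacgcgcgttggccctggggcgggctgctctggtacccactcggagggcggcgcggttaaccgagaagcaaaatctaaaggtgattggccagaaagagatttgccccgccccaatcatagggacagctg
Among the related genes described below, the motif was in the windows of Atf3, Nupr1 and Jdp2 (3 of 6 partner factors), of Vldlr, Fgf21, Got1, Pck2 and Pycr1 (5 of 13 other ATF4 targets) and of Slc7a11 and Slc1a4 (2 of 7 amino acid transporters). None of 18 folate genes and none of 10 genes of eIF2 control had it. A match is a stretch of letters in this window and was not measured as a bound site.

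The amino acid synthesis genes were highest with CHIR and stepped down with time after withdrawal. Asns encodes asparagine synthetase, which makes asparagine from aspartate and glutamine, and lies on chromosome 6 (7675169 to 7693254, minus strand, GRCm38). It stood at 360, 306 and 689 CPM in CHIR libraries 1 to 3, at 222, 201 and 206 CPM 24 h after withdrawal, and at 69.2, 61.2 and 63.2 CPM after 48 h. The 3 groups did not overlap. Asns was at 67.1, 68.8 and 60.9 CPM with WNT, at 78.3, 135 and 128 CPM with the FZD5 agonist, and at 544, 124 and 118 CPM with the FZD6 agonist. All 6 libraries of the agonists lay above all 6 of the 48 h and WNT groups, and the WNT range lay inside that of 48 h withdrawal except for its lowest library.

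Phgdh encodes phosphoglycerate dehydrogenase, the first enzyme of serine synthesis from a glycolytic intermediate (chromosome 3, 98313170 to 98339990, minus strand). Its CHIR libraries were at 16.9, 23.6 and 34.6 CPM, the 24 h libraries at 13.8, 13.1 and 13.1 CPM, and the 48 h libraries at 2.57, 2.70 and 2.84 CPM. The order of groups was that of Asns, with the narrowest spread at 24 h and 48 h of any of the serine genes. WNT libraries were at 3.60, 3.003 and 2.69 CPM, FZD5 agonist libraries at 5.87, 7.64 and 8.21 CPM, and FZD6 agonist libraries at 25.0, 7.05 and 7.24 CPM. Per kilobase of exonic width Phgdh had the lowest mean of the 10 genes in every group, 13.2 CPM per kb with CHIR and 1.43 after 48 h; in CHIR 2 alone Chac1 was lower, at 11.9 against 12.4.

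Psat1, phosphoserine aminotransferase, carries out the next step (chromosome 19, 15904678 to 15947337, minus strand). It was at 274, 230 and 277 CPM with CHIR, then at 160, 63.4 and 150 CPM after 24 h, where library 2, which stood apart, was the low one. After 48 h it was at 41.6, 46.1 and 52.0 CPM, and with WNT at 53.0, 45.9 and 41.5 CPM. With the FZD5 agonist it was at 82.5, 115 and 114 CPM and with the FZD6 agonist at 232, 108 and 104 CPM, above every 48 h and WNT library.

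Psph, phosphoserine phosphatase, completes serine synthesis (chromosome 5, 129765558 to 129787449, minus strand). Its CHIR libraries were at 65.3, 50.3 and 126 CPM, the 24 h libraries at 32.7, 48.9 and 31.8 CPM and the 48 h libraries at 14.5, 17.7 and 14.7 CPM. Psph differed from the other enzymes in the ligand groups: it was at 17.2, 16.0 and 15.5 CPM with WNT, at 14.5, 19.7 and 20.9985 CPM with the FZD5 agonist, and at 111, 19.7 and 20.6 CPM with the FZD6 agonist. The FZD5 agonist range overlapped those of WNT and 48 h withdrawal. Exons of Psph share 452 of 4329 annotated exonic bases (10.4%) with Cct6a on the opposite strand, which was at 131 to 303 CPM. The deposited exonic width of Psph is 1733, so the shared part of what was counted is not known. The use of strand in counting is not stated, so reads of these genes in the shared stretch cannot be told apart.

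The mitochondrial one-carbon enzymes followed the same order. Shmt2, the mitochondrial serine hydroxymethyltransferase that moves a carbon from serine to folate (chromosome 10, 127517123 to 127522444, minus strand), stood at 146, 236 and 318 CPM with CHIR, at 138, 146 and 138 CPM after 24 h, and at 45.4, 47.1 and 52.2 CPM after 48 h. It was at 58.4, 52.5 and 50.5 CPM with WNT, at 79.2, 107 and 94.4 CPM with the FZD5 agonist, and at 267, 99.5 and 92.6 CPM with the FZD6 agonist. CHIR 1, at 146 CPM, was only just above the 24 h libraries. Mthfd2, which oxidises the resulting methylene-folate in mitochondria (chromosome 6, 83305691 to 83325908, minus strand), stood at 169, 142 and 468 CPM with CHIR, then at 127, 184 and 109 CPM after 24 h. These groups overlapped, because 24 h withdrawal 2 lay above CHIR 1 and CHIR 2. After 48 h Mthfd2 was at 34.1, 27.1 and 29.9 CPM, and it was at 37.6, 36.9 and 30.4 CPM with WNT, at 47.2, 96.2 and 73.6 CPM with the FZD5 agonist, and at 363, 77.2 and 74.9 CPM with the FZD6 agonist.

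The stress genes had another time course with all libraries: they were not uniformly lower at 24 h than with CHIR, and reached their low only at 48 h. Atf4 itself (chromosome 15, 80255184 to 80257541, plus strand) stood at 113, 198 and 321 CPM with CHIR, at 193, 447 and 131 CPM after 24 h, and at 87.0, 73.3 and 73.4 CPM after 48 h. The CHIR and 24 h ranges overlapped and both lay above 48 h. Without the libraries that stand apart, the 24 h libraries 1 and 3, at 193 and 131 CPM, lay below CHIR 2, at 198 CPM. Library 1 was close to CHIR 2, the single CHIR library left. A step down of Atf4 at 24 h like that of the enzymes was therefore not established. Atf4 was at 81.1, 84.8 and 76.1 CPM with WNT, at 99.3, 162 and 135 CPM with the FZD5 agonist, and at 321, 129 and 136 CPM with the FZD6 agonist. ATF4 is controlled largely at translation, which these RNA counts do not measure.

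Ddit3 encodes CHOP, a C/EBP-family factor of prolonged stress (chromosome 10, 127290774 to 127296288, plus strand). It was at 36.6, 31.1 and 184 CPM with CHIR, at 59.8, 242 and 21.1 CPM after 24 h and at 19.5, 14.5 and 17.04 CPM after 48 h. Within CHIR and within 24 h withdrawal the highest library was more than 5 times the lowest, so a mean describes neither group. It was at 18.2, 23.8 and 17.9 CPM with WNT, at 31.95, 72.9 and 51.5 CPM with the FZD5 agonist, and at 119, 49.97 and 57.4 CPM with the FZD6 agonist. Ddit3 shares 68 of 1713 annotated exonic bases (3.97%) with Mars on the opposite strand (89.1 to 305 CPM), and a second annotated Ddit3 gene overlaps it. The deposited exonic width of Ddit3 is 890.

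Trib3 encodes a pseudokinase that is induced by ATF4 and CHOP (chromosome 2, 152337422 to 152344032, minus strand). It was at 75.1, 95.5 and 417 CPM with CHIR, at 138, 275 and 62.1 CPM after 24 h and at 37.3, 13.9 and 29.9 CPM after 48 h. WNT libraries were at 23.0, 47.1 and 24.1 CPM, FZD5 agonist libraries at 46.4, 116 and 91.9 CPM, and FZD6 agonist libraries at 275, 95.5 and 106 CPM. Its lowest FZD5 agonist library lay just below its highest WNT library. Chac1 encodes an enzyme that breaks down glutathione (chromosome 2, 119351229 to 119354381, plus strand). It was at 19.6, 19.4 and 95.8 CPM with CHIR, at 27.4, 97.8 and 15.3 CPM after 24 h and at 6.87, 2.11 and 5.21 CPM after 48 h. It was at 6.001, 7.32 and 4.82 CPM with WNT, at 5.02, 11.9 and 12.7 CPM with the FZD5 agonist, and at 81.6, 9.93 and 9.98 CPM with the FZD6 agonist. The 24 h range spanned that of CHIR, and 48 h withdrawal 2 was the lowest library for both Trib3 and Chac1.

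**Figure D1:**
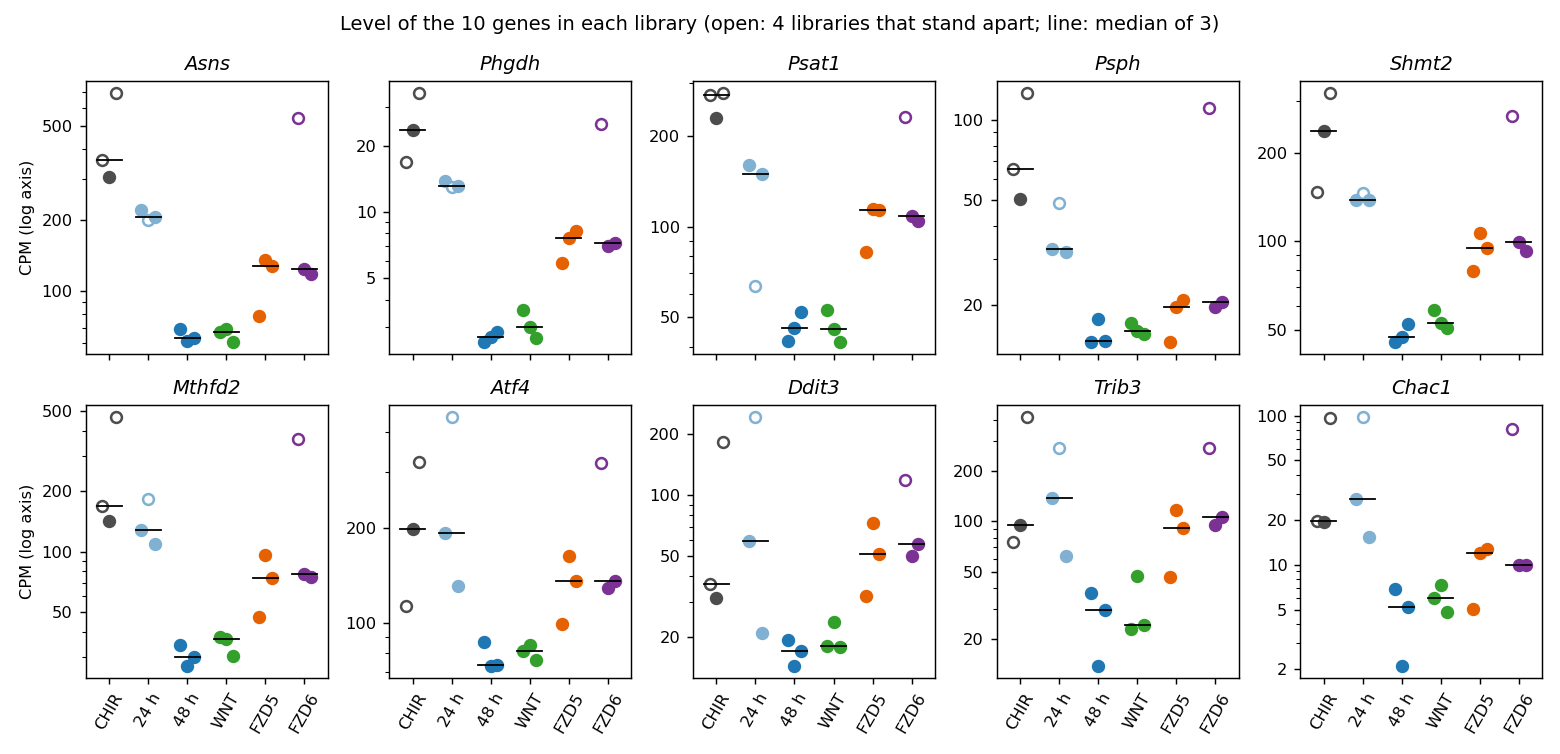
Level of each of the 10 genes in every library, in CPM on a log axis, by group (CHIR, 24 h and 48 h withdrawal, WNT, FZD5 agonist, FZD6 agonist); each point is a library, open points are the 4 libraries that stand apart, and lines are medians of 3. The medians of the 6 enzymes step down from CHIR to 24 h to 48 h, whereas the medians of Ddit3, Trib3 and Chac1 are higher at 24 h than with CHIR.

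The 3 libraries with airway genes were high for all 4 stress genes, and FZD6 agonist 1 was as high for most of the enzymes. For Atf4, Ddit3, Trib3 and Chac1, CHIR 3 was 2.06 to 5.43 times the mean of the other 2 CHIR libraries, 24 h withdrawal 2 was 2.75 to 5.995 times, and FZD6 agonist 1 was 2.21 to 8.20 times the mean of its group's other libraries. For the 6 enzymes the corresponding ratios were 1.10 to 3.01, 0.409 to 1.55 and 2.18 to 5.52. The reference for CHIR 3 includes CHIR 1, which also stood apart. Atf4 was at 113 CPM in CHIR 1, at 198 CPM in CHIR 2 and at 321 CPM in CHIR 3. Library 2 of 24 h withdrawal thus had the stress genes high while its Asns, Phgdh and Shmt2 were near the other 24 h libraries. Its Psph and Mthfd2 were above those libraries, at 1.51 and 1.55 times their mean, and its Psat1 was below them. The part of the airway genes, the mitochondrial share and Sftpc in these levels was not tested. In bulk RNA, fewer cells of a type and less RNA per cell cannot be told apart.

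**Figure D2:**
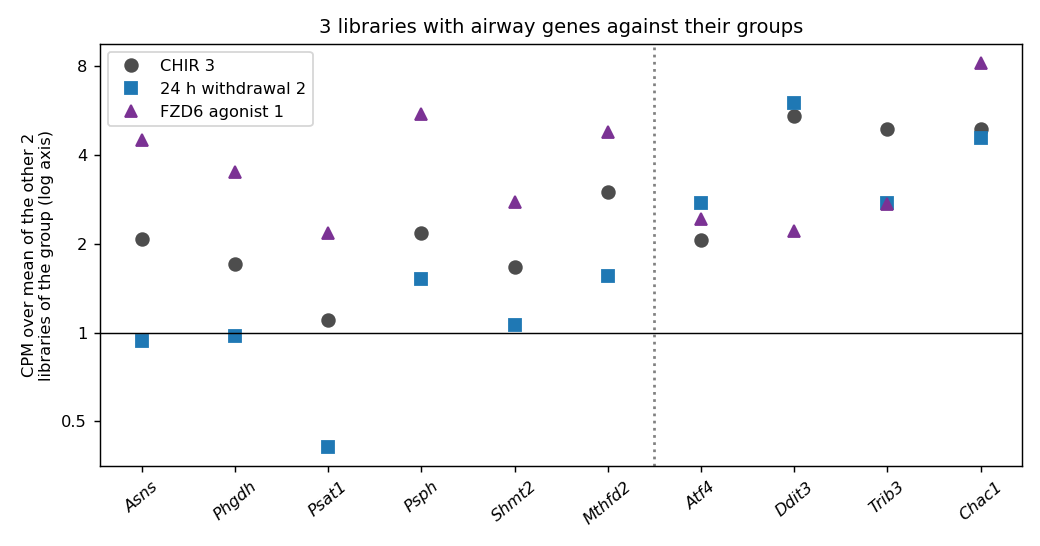
CPM of each of the 10 genes in CHIR 3, 24 h withdrawal 2 and FZD6 agonist 1, divided by the mean of the other 2 libraries of the group (log axis; the dotted line separates the 6 enzymes from the 4 stress genes). All 4 stress genes lie above 2 in all 3 libraries, while the enzymes of 24 h withdrawal 2 lie between 0.409 and 1.55. The reference for CHIR 3 includes CHIR 1, which also stands apart.

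Fitted differences put sizes on the time course. After 48 h the 6 enzymes were lower than with CHIR, with log2 differences (SE 0.35 to 0.59) of -3.21 ± 0.44 for Phgdh, -3.09 ± 0.59 for Mthfd2, -2.81 ± 0.50 for Asns and -2.28 ± 0.36 for Shmt2 (SE). The stress genes ranged from -1.44 ± 0.46 for Atf4 to -3.25 ± 0.95 for Chac1. Without the 4 libraries the enzyme differences were -1.66 to -3.10 and those of the stress genes -0.84 to -2.00, so Ddit3 moved from -2.30 ± 0.77 to -0.84 ± 0.54 and Trib3 from -2.86 ± 0.73 to -1.79 ± 0.66. At the threshold used throughout, a Benjamini-Hochberg adjusted p under 0.05 in edgeR's quasi-likelihood test over all genes, the 6 enzymes and none of the stress genes counted as lower, where 1.49% of all genes did; without the 4 libraries 8 of the 10 did, where 13.9% of all genes did. DESeq2 with all libraries counted all 10 as lower, where 758 of 16497 genes were. These counts come from the contrast on which the genes were chosen and carry no weight as evidence.

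At 24 h the log2 differences from CHIR were -0.73 to -1.11 for the 6 enzymes and -0.31 to 0.36 for the stress genes; without the 4 libraries they were -0.26 to -0.80 and -0.28 to 0.39. None of the 10 was called in edgeR, where 0% of all genes were called, 2809 of 16497 genes had an unadjusted p under 0.05, and DESeq2 called 500; without the 4 libraries 3 (Shmt2, Psph and Phgdh) counted as lower, where 1.74% of all genes did. From 24 h to 48 h they were -1.27 to -2.30 for the enzymes and -1.72 to -3.30 for the stress genes, or -1.05 to -2.15 for the stress genes without the 4 libraries. For the enzymes the second day thus held more of the difference than the first, and for the stress genes most of it. Without the 4 libraries, markers moved over the same time. The 8 alveolar type 1 genes summed to 3334 CPM in CHIR 2, 5318 to 6063 CPM in the 24 h libraries 1 and 3, and 7362 to 8355 CPM at 48 h. The sum of the 6 club and airway secretory genes went from 46.4 CPM to 121 to 151 CPM and 512 to 650 CPM in the same libraries. Of these genes Scgb1a1, Scgb3a1, Bpifa1 and Reg3g together held at most 1.63 CPM there. The rise thus lay in the remaining genes, Scgb3a2 and Cyp2f2. With all libraries the alveolar type 1 ranges were 3334 to 7089 CPM with CHIR and 5318 to 9428 CPM at 24 h. Those of the secretory genes were 46.2 to 873 CPM and 121 to 592 CPM, so CHIR and 24 h overlapped. The part of these markers in the time course was not tested.

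Levels compared per kilobase of exonic width show which of the 10 messages were most abundant. With CHIR, Asns had the highest mean at 209 CPM per kb, followed by Mthfd2 at 124, Atf4 at 122 and Shmt2 at 101.3, and Chac1 and Phgdh were lowest at 27.5 and 13.2. After 48 h the order had changed: Atf4 led with 45.2 CPM per kb, Asns was at 29.9 and Shmt2 at 20.9, and Chac1 and Phgdh remained lowest at 2.89 and 1.43. Asns and Mthfd2 had means raised by CHIR 3; in CHIR 2 alone Asns was at 142 and Mthfd2 at 68.3 CPM per kb, and Atf4 at 115.

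With WNT all 10 genes stood close to their 48 h level: log2 differences from 48 h withdrawal were 0.01 to 0.35, with SE 0.33 to 0.88, and the median was 0.18. None was called in edgeR, nor was any other gene (0%; 35 genes at an unadjusted p under 0.05, and 0 called by DESeq2). Both agonists stood higher. With the FZD5 agonist the differences from 48 h withdrawal were 0.23 for Psph and 0.76 to 1.65 for the other 9. With the FZD6 agonist they were 1.33 to 2.84, and 0.36 to 1.90 with its library 1 alone left out. In the edgeR fit of all libraries none of the 10 was called against 48 h withdrawal for either agonist. Of all genes 0% were for the FZD5 agonist (393 at an unadjusted p under 0.05) and 0.0121% for the FZD6 agonist. Without the 4 libraries 7 of the 10 were called for each, where 8.86% and 7.42% of all genes were called higher. DESeq2 called 0 of the 10 for the FZD5 agonist, where 22 of 16497 genes were higher. For the FZD6 agonist it called 6, where 51 were. With the compared groups only, edgeR called 7 for the FZD5 agonist, where 1036 of 15031 genes were higher, and 0 for the FZD6 agonist. Since the 48 h group took part in choosing the genes, these values are a description.

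The ligand groups took no part in the withdrawal difference on which the genes were chosen, although the CHIR and withdrawal libraries enter the shared spread in the fits of 18 and 14 libraries. The choice was made with earlier results of these data known, so these comparisons may not be independent of it. WNT also stood close to 48 h withdrawal, which took part in the choice. All 10 genes had a higher fitted level with the FZD5 agonist than with WNT, by 0.18 to 1.44 on the log2 scale. For 7 of the 10, every FZD5 agonist library lay above every WNT library, where 17.2% of all genes did; the exceptions were Psph, Trib3 and Chac1, whose ranges overlapped. In the fit of all 18 libraries none of the 10 was called, and no gene at all was (0% higher; 413 genes at an unadjusted p under 0.05, and 35 genes but none of the 10 called by DESeq2).

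That outcome rested on the spread shared across groups. Neither the FZD5 agonist nor the WNT group contains a library that stands apart, yet such libraries in other groups enter the common estimate of spread. With the 6 libraries of these groups alone, edgeR called 7 of the 10 higher with the FZD5 agonist, where 6.75% of all genes were called higher; with 14 libraries it called the same 7, where 8.74% were. The differences themselves scarcely moved. These calls, and those for the FZD6 agonist below, rest on libraries of unlabelled origin, whose spread may be technical where they are alike. With 14 libraries Psat1 rose by 1.14 ± 0.12 (SE; edgeR adjusted p = 4.5e-05), Shmt2 by 0.79 ± 0.09 (adjusted p = 5e-05) and Phgdh by 1.22 ± 0.15 (adjusted p = 6.1e-05). Asns rose by 0.79 ± 0.16 (adjusted p = 0.0051) and Mthfd2 by 1.04 ± 0.21 (adjusted p = 0.0083). The factors Atf4 (0.71 ± 0.17, adjusted p = 0.019) and Ddit3 (1.38 ± 0.40, adjusted p = 0.048) also passed, Ddit3 barely. Trib3 (1.43 ± 0.51, adjusted p = 0.099), Chac1 (0.71 ± 0.45, adjusted p = 0.34) and Psph (0.18 ± 0.12, adjusted p = 0.36) did not. The 95% interval for Psph was -0.08 to 0.43, whereas those of the other serine synthesis enzymes were 0.91 to 1.53 for Phgdh and 0.88 to 1.41 for Psat1. The difference between Psph and these enzymes was not itself tested. FZD5 agonist 1 was the lowest library of its group for all 10 genes.

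The FZD6 agonist was also above WNT, and here its library 1 set much of the size. All 10 genes had every FZD6 agonist library above every WNT library, where 12.7% of all genes did. With all libraries the log2 differences were 1.27 to 2.48 and none was called in edgeR (0% of genes higher, and 606 genes at an unadjusted p under 0.05). DESeq2 called 5 of the 10, where it called 0.249% of genes higher. With the compared groups only, which kept FZD6 agonist 1, edgeR called 0 of the 10, where 3 of 15206 genes were higher. Without the 4 libraries, which leaves FZD6 agonist libraries 2 and 3, differences were 0.30 to 1.68 and edgeR called 6 higher, where 6.61% of genes were. These were Psat1 (1.18 ± 0.13, adjusted p = 1e-04), Shmt2 (0.83 ± 0.10, adjusted p = 0.00011), Phgdh (1.20 ± 0.16, adjusted p = 2e-04), Asns (0.88 ± 0.17, adjusted p = 0.0064), Mthfd2 (1.11 ± 0.23, adjusted p = 0.013) and Atf4 (0.71 ± 0.19, adjusted p = 0.037).

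No test separated the agonists from each other. In the fit of all libraries the log2 differences of the FZD5 from the FZD6 agonist were -0.52 to -1.77, and none of the 10 was called (0% of genes; 164 at an unadjusted p under 0.05, and 0 by DESeq2). Without FZD6 agonist 1 and the other libraries standing apart the differences were -0.25 to 0.02. The 95% intervals were then -0.26 to 0.18 for Shmt2, -0.32 to 0.25 for Psat1, -0.31 to 0.36 for Phgdh, -0.46 to 0.29 for Asns and -0.43 to 0.43 for Atf4. For Trib3 the interval was -1.52 to 1.02, and for Chac1 -1.11 to 1.11, so these intervals reach past 2-fold in both directions. The FZD5 and FZD6 agonist comparisons with WNT share the WNT libraries. Other markers differed among the ligand groups: the club and airway secretory genes summed to 483 to 523 CPM with WNT, 131 to 350 CPM with the FZD5 agonist and 146 to 199 CPM in FZD6 agonist libraries 2 and 3. Alveolar type 1 genes summed to 6970 to 7628, 5662 to 7640 and 6293 to 6393 CPM in the same libraries. In FZD6 agonist 1 the secretory genes summed to 1011 CPM and the alveolar type 1 genes to 7538 CPM. Outside FZD6 agonist 1, Scgb1a1, Scgb3a1, Bpifa1 and Reg3g together held at most 1.63 CPM in these groups. The secretory sums there were thus almost all Scgb3a2 and Cyp2f2. The part of these markers in the ligand differences was not tested.

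**Figure D3:**
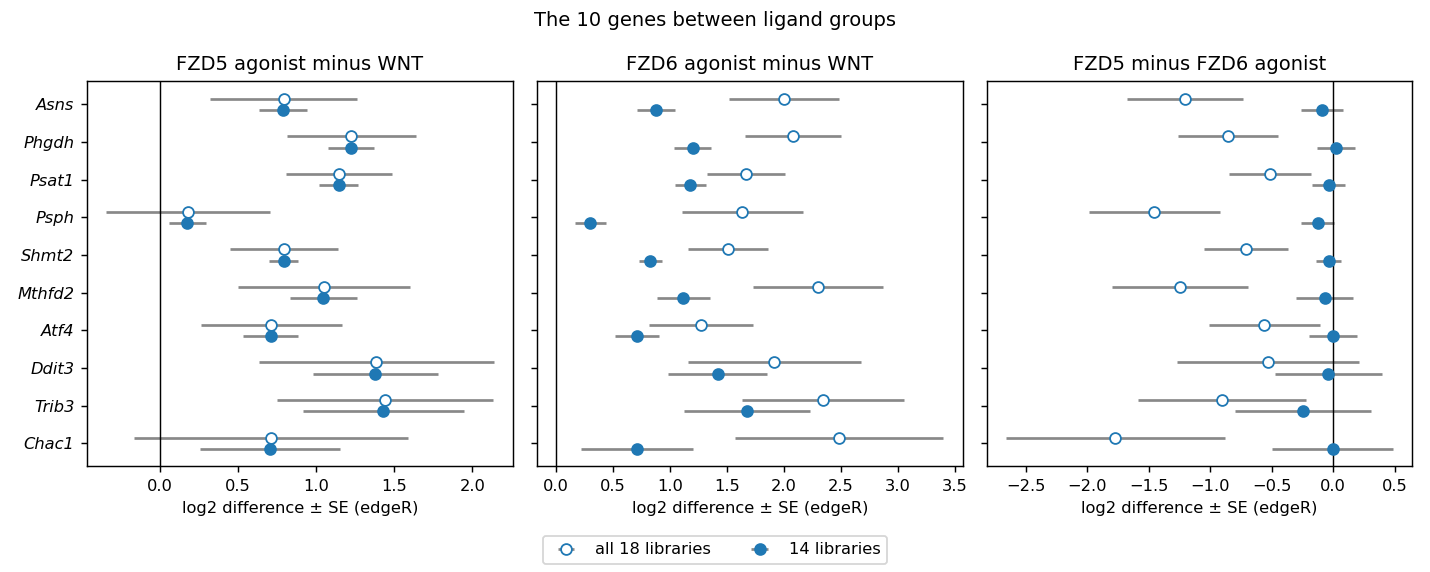
Log2 differences (edgeR, bars are SE) of the 10 genes for the FZD5 agonist minus WNT, the FZD6 agonist minus WNT and the FZD5 minus the FZD6 agonist, from all 18 libraries (open) and from 14 (filled). In the first panel the estimates coincide and only the bars shorten; in the other panels the estimates move when the 4 libraries, FZD6 agonist 1 among them, are left out, and those of the last panel come to lie between -0.25 and 0.02.

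Other genes of the same pathways were examined from 5 lists holding 67 genes, of which 65 were tested (Slc43a1 and Gldc were not). The lists, like the 10 genes, were drawn up with earlier results of these data known. Their p-values against CHIR come from the contrast on which the 10 genes were chosen. They describe these genes and are no independent support for the fall of the 10. After 48 h of withdrawal 12 of the 65 fell and none rose against CHIR in edgeR (1.49% and 1.10% of all genes did so), and 57 had a negative difference, with a median of -0.84 against -0.04 over all genes. The count was 0 when any 1 of the 48 h libraries was left out and at most 10 when another library was, and it was 36 (33 lower, 3 higher) without the 4 libraries that stand apart, where 13.9% of all genes were lower and 13.6% higher. Of the 12 genes, 10 were called there too; Stc2 (-2.23 ± 0.82 SE, edgeR adjusted p = 0.083) and Gcsh (-0.52 ± 0.19, adjusted p = 0.051) were not.

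Among other ATF4 targets 5 of 15 fell. Pycr1, an enzyme of proline synthesis, was at 41.1, 32.03 and 95.04 CPM with CHIR, then at 11.1, 6.82 and 10.9 CPM after 48 h (log2 difference -2.54 ± 0.46 SE, edgeR adjusted p = 0.010). Aldh18a1, which catalyses the step before it, was at 173, 245 and 396 CPM against 61.3, 59.4 and 60.3 CPM (-2.17 ± 0.47, adjusted p = 0.023). Eif4ebp1, a repressor of cap-dependent translation, fell by 2.11 ± 0.41 (adjusted p = 0.014). Gdf15, a secreted stress factor, went from 70.4, 46.6 and 231 CPM to 5.37, 4.95 and 6.52 CPM (-4.37 ± 1.08, adjusted p = 0.045), and Stc2, a secreted glycoprotein, fell by 2.81 ± 0.70 (adjusted p = 0.048). The median of the list was -1.43.

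The amino acid transporters had the lowest median of the lists, -1.62, and 3 of 10 fell. Slc1a4, which carries serine and other neutral amino acids, fell by 2.44 ± 0.56 (adjusted p = 0.031), Slc7a1, a carrier of arginine and lysine, by 1.86 ± 0.43 (adjusted p = 0.033) and Slc7a11, the cystine carrier, by 3.06 ± 0.76 (adjusted p = 0.047). Of the folate genes 3 of 22 fell, with a list median of -0.47: Shmt1, the cytosolic counterpart of Shmt2, by 1.48 ± 0.32 (adjusted p = 0.024), the folate carrier Slc19a1 by 1.46 ± 0.33 (adjusted p = 0.028), and Gcsh of the glycine cleavage system by 1.12 ± 0.28 (adjusted p = 0.046). One of 12 genes of eIF2 control fell (Eif2b3, -1.27 ± 0.25, adjusted p = 0.016; list median -0.41), and none of the 6 partner factors passed, with a median of -1.16. The folate gene Aldh1l1, which disposes of folate-bound formyl groups, was at 56.3, 53.4 and 49.7 CPM after 48 h. Without the 4 libraries its difference was 1.79, against the single library CHIR 2 at 15.6 CPM. CHIR 1 and CHIR 3, left out there, held 8.56 and 57.4 CPM. With all 18 libraries the difference was 0.97 ± 0.46 (SE, edgeR adjusted p = 0.32).

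**Figure D4:**
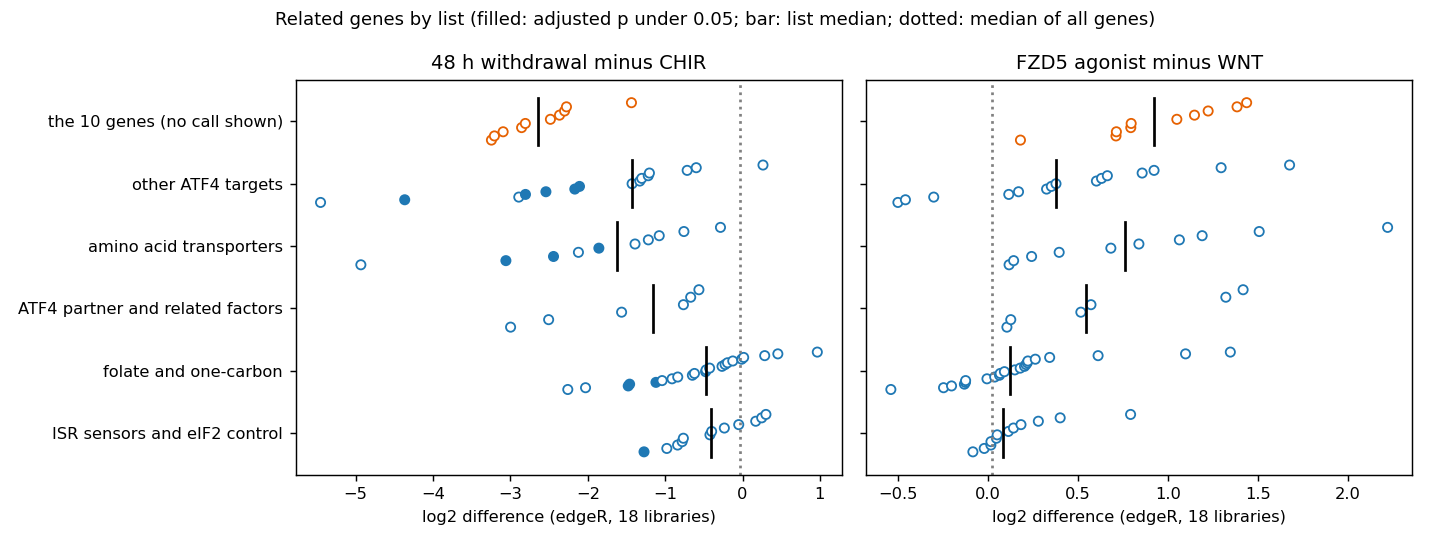
Log2 differences of the 10 genes (orange) and of the related genes by list (blue, filled where the edgeR adjusted p is under 0.05), for 48 h withdrawal minus CHIR and for the FZD5 agonist minus WNT, from 18 libraries; bars are list medians and dotted lines the median of all genes. The medians of the targets and transporters lie farther from the dotted line than those of folate and eIF2 genes in both panels, and no related gene is filled in the second.

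Between ligands, 53 of the 65 related genes had a higher fitted level with the FZD5 agonist than with WNT (median 0.21 against 0.02 over all genes), but none was called in the fit of all libraries (0%; 413 genes at an unadjusted p under 0.05). With the 6 libraries alone edgeR called 11 higher and 3 lower, where 6.75% of all genes were higher and 6.31% lower. With 14 libraries it called 14 and 4, where 8.74% and 7.92% were, so the lower calls were near or below the share of all genes. In the latter fit 4 of 10 transporters rose: Slc7a1 by 1.19 ± 0.19 (adjusted p = 0.0012), Slc7a5, a carrier of large neutral amino acids, by 0.83 ± 0.18 (adjusted p = 0.011), its partner chain Slc3a2 by 0.68 ± 0.17 (adjusted p = 0.017) and Slc1a4 by 1.499 ± 0.43 (adjusted p = 0.047). The partner factors Jdp2 (0.57 ± 0.11, adjusted p = 0.0022) and Atf3 (1.41 ± 0.41, adjusted p = 0.046) rose as well. Of the other targets Aldh18a1, Pck2, Gdf15 and Pycr1 rose by 0.37 to 0.85, and Got1 (-0.46 ± 0.10, adjusted p = 0.0037) and Sesn2 (-0.51 ± 0.14, adjusted p = 0.025) fell. The folate genes split: Slc19a1 and Aldh1l2, a mitochondrial enzyme, rose, and Aldh1l1 (-0.54 ± 0.09, adjusted p = 0.00056) and the mitochondrial serine carrier Sfxn1 (-0.25 ± 0.07, adjusted p = 0.020) fell. Ppp1r15b, a subunit of an eIF2 phosphatase, and Eif2ak4, the amino acid sensor GCN2, rose by 0.40 ± 0.07 (adjusted p = 0.0015) and 0.28 ± 0.08 (adjusted p = 0.034).

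The genes nearest in pattern were found by the root mean square difference of log2 CPM, each gene centred on its own mean, among the 10361 genes whose average log2 CPM reached 2; a smaller value is a closer pattern. Over the 18 libraries the nearest to Asns outside the set were Pycr1 (0.35), Plaur (0.36), Nars (0.39) and Cars (0.44), and its nearest within the set was Mthfd2 (0.26). The nearest to Atf4 were Pck2 (0.24), Slc3a2 (0.26), Angptl6 (0.29) and Sars (0.31), all closer than any of the other 9 genes, of which Shmt2 (0.44) came first. Chac1 had looser neighbours, Gdf15 (0.63), Gpx2 (0.65), Nupr1 (0.68) and Pycr1 (0.70), with Trib3 (0.55) nearest within the set. Ddit3 and Trib3 were each other's nearest (0.43).

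Over the 14 libraries the neighbours changed. Asns was then closest to Slc7a5 (0.15), Aldh18a1 (0.16), Lrp8 (0.24) and Ripk3 (0.25), and within the set to Shmt2 (0.17). Atf4 lay closest to Cars (0.099), Sdad1 (0.11), Yars (0.12) and Nars (0.12), of which Cars, Yars and Nars are aminoacyl-tRNA synthetase genes. Chac1 lay closest to Cyp1b1 (0.35), Eif4ebp1 (0.39), Ffar4 (0.40) and Pycr1 (0.40). Psph was the only enzyme of the set nearest to Atf4 (0.31), and Ddit3 and Trib3 stayed each other's nearest (0.44). These values describe the libraries, which share groups and depth, and carry no test.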

How the data were processed

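RNA was isolated with RNeasy columns and 0.1 µg was prepared with TruSeq Stranded Total RNA, per the labels' protocols. GSNAP and the build GRCm38 are named in the submitters' processing notes; strand use, versions, counter and annotation were not given in the sources used here. Deposited counts are whole, unnormalised numbers of reads per gene, made by the authors, 1 table per library. Of 52636 identifiers, 52403 (99.6%) matched a symbol in GENCODE M21, the source of coordinates. The gene width in the deposited tables was used for levels per kilobase.

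Libraries were grouped by label. Genes were filtered with filterByExpr by group, leaving 16497. Counts were tested in edgeR 4.0.16 (R 4.3.3) with TMM factors and robust quasi-likelihood fitting, in 1 fit of 18 libraries, with Benjamini-Hochberg adjustment over all genes. CPM use TMM-scaled library sizes, and SE is the log2 difference over the square root of F. Intervals for differences are t intervals from the fit. Counts were simulated for the FZD5 against FZD6 agonist comparison (16497 genes), with the spread of a gene equal in all libraries. On them the test recovered 13% of 2-fold and 72% of 4-fold changes, and 2.30% of the called genes were false. In the data the spread was uneven between libraries, so these shares need not hold for the ligand comparisons. No libraries within a group agreed within sampling noise, with chi-square over degrees of freedom of 7.08 to 1118. Floors from counts cover counting error only.

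The 10 genes, the related lists and the motif were chosen with earlier results of these data known. All 10 were named; of each related list, up to 4 called genes with the smallest p per comparison, or all where 5 or fewer were called, and for Asns, Atf4 and Chac1 the 4 nearest genes in pattern. Alternatives were DESeq2 1.42.0, its size factors in edgeR (RLE), no filter, compared groups only, a replicate block, 14 libraries, and each library left out in turn. Sequences are from RefSeq, and all 10 genes matched a window.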

Additional observations from a re-analysis of the deposited data

How the results depend on the processing

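The number of the 10 genes called between ligands was 0 in the fit of all 18 libraries. For the FZD5 agonist against WNT it was 7 with the compared groups only, 7 with 14 libraries and 0 with DESeq2. For the FZD6 agonist against WNT it was 0 with the compared groups only, 6 with 14 libraries and 5 with DESeq2. Leaving out 1 library at a time gave 0 to 0 for each ligand pair. Of the 65 related genes, 12 were called for 48 h withdrawal against CHIR (2.59% of all genes were); the count was 23 with DESeq2 (7.87% of all genes), 6 without the filter (0.675%), 5 with the compared groups only (0.851%), 36 with 14 libraries (27.5%) and 0 to 10 with 1 library left out. For 24 h withdrawal against CHIR it was 0, then 1 with DESeq2 (3.03% of all genes) and 6 with 14 libraries (4.5%). For the FZD5 agonist against 48 h withdrawal it was 0, then 13 with the compared groups only (1958 of 15031 genes in all) and 22 with 14 libraries (15.7% of all genes), and for the FZD6 agonist 0, then 6 with DESeq2 (0.394%) and 19 with 14 libraries (12.1%). The replicate numbers did not pair the libraries (45 pairs, correlation of deviations -0.521 to 0.466, 4 pairs over 0.1); with the replicate block the related count for 48 h withdrawal was 6, and over all genes 257 in place of 427. Between the agonists the difference turned sign for Phgdh (0.023 with 14 libraries, and -1.16 to 0.017 with 1 library left out, the highest without FZD6 agonist 1) and Atf4 (0.00041 with 14 libraries). Beside these 3 reversals, of the values for single genes 584 kept their direction and side of the threshold, 25 passed it only under an alternative and 28 untested values moved by more than the spread. The cause was not tested. Each group had 3 libraries, and CHIR had 1 without those that stand apart; depth as a limit was not tested.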
